A study of Mus musculus with 6 samples.

Results

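The genes described here are 10 receptors, enzymes and targets of the glucocorticoid and mineralocorticoid pathways, taken by name: Nr3c1, Nr3c2, Hsd11b2, Pdk4, Fkbp5, Tsc22d3, Klf9, Zbtb16, Sgk1 and Scnn1a. Of the 41174 probes of the array design, 21 carry the name of a member and cover 9 of the 10 genes. No probe with the name Zbtb16 was among those analysed here. All 9 covered members were well above background on all 6 arrays through at least 1 probe, so all 9 were among the 19615 genes tested.

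Kidney RNA was measured on 6 Agilent arrays read in 1 colour. Mice deficient in Gpr97, a former name of the adhesion receptor gene Adgrg3, gave 1 array after renal ischaemia/reperfusion injury and 1 after sham surgery. Wild-type mice gave 2 arrays after the same injury and 2 after sham surgery. All mice are labelled male. Strain, age, deletion allele, length of ischaemia and time after surgery are not stated in the labels. Whether 2 arrays of 1 group are 2 animals is not stated either, so a p-value here reflects the spread among arrays, which may be technical. Because whole kidney was used, fewer cells of a type and less RNA per cell cannot be told apart in any result below.

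Glucocorticoid and mineralocorticoid hormones act through related nuclear receptors. After binding the hormone, the receptor leaves its chaperones, enters the nucleus and binds DNA at glucocorticoid response elements, which are inverted repeats with a short spacer. The glucocorticoid receptor Nr3c1 is present in most kidney cells. The mineralocorticoid receptor Nr3c2 acts mainly in the distal nephron and collecting duct, where the enzyme Hsd11b2 inactivates glucocorticoids and so leaves the receptor to aldosterone. Among the targets, Sgk1 is a kinase that keeps the epithelial sodium channel at the cell surface, and Scnn1a is the alpha subunit of that channel. Fkbp5 is a co-chaperone that lowers the receptor's affinity for hormone. Tsc22d3 encodes the anti-inflammatory protein GILZ, and Klf9 is a transcription factor. Pdk4 inhibits the pyruvate dehydrogenase complex and is also induced by fasting and by fatty acids through PPAR alpha.

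The promoters of 3 targets are shown. Pdk4 and Fkbp5 had higher levels after injury in every pair of arrays. The Sgk1 window was chosen for its sequence, being the only available window of a member with the full palindrome given below. Sgk1 levels were not higher after injury in every pair. Each sequence is the 250 bases before a RefSeq transcription start, 5′ to 3′ on the coding strand, in build GRCm38.p6. The regions are chr6:5496279-5496528 on the minus strand for Pdk4, chr17:28486150-28486399 on the minus strand for Fkbp5 and chr10:21993640-21993889 on the plus strand for Sgk1. Capitals mark the full palindrome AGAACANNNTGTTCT.
Pdk4: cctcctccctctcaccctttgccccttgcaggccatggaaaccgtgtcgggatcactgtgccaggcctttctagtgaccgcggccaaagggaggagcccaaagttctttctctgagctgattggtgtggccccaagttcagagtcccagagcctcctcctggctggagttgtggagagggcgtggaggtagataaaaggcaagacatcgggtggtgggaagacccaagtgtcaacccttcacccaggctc
Fkbp5: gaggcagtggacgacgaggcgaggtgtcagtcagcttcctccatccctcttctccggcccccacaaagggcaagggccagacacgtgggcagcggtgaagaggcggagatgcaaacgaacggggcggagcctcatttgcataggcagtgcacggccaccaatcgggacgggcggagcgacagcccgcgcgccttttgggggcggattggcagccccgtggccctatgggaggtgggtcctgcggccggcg
Sgk1: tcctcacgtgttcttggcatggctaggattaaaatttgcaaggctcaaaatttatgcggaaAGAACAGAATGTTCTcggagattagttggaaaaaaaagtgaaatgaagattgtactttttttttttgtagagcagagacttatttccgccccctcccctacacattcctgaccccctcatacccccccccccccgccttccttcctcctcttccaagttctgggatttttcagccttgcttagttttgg

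The Sgk1 element, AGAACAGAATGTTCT, lies at positions 21993701 to 21993715 of chromosome 10 and begins 189 bases before that start. In windows running 250 bases before to 50 bases after a start, this palindrome occurred in 3 of 32851 windows of all genes (0.00913%). It occurred in 1 of the 13 windows available for 6 of the members, namely Pdk4, Fkbp5, Klf9, Nr3c2, Sgk1 with 6 windows and Tsc22d3 with 3. The looser core GNACANNNTGTNC, read on both strands and contained in the full palindrome, occurred in 156 windows of all genes (0.475%) and in the same Sgk1 window alone among the members. The single arm AGAACA, also read on both strands and also contained in the palindrome, was in 4 of the 13 windows, 3 of Sgk1 and 1 of Tsc22d3, against 6233 windows of all genes (19%). Neither the palindrome nor the core was in the 21 windows of the 16 other glucocorticoid-induced genes listed here. These are matches of letters in short windows, and a window without a match says nothing of elements elsewhere.

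Expression is given as log2 of the scanner's processed signal minus the 75th percentile of the array, so a difference of 1 is a 2-fold difference. Levels of different genes come from different probes and are not compared. The targeted gene Adgrg3 was at -5.75 on the Gpr97-deficient injured array, where it was not well above background, and at -5.38 on the Gpr97-deficient sham array, against 0.02 to 1.18 on the 4 wild-type arrays. Wild-type injured array 1 had Xist, a transcript of the inactive X chromosome, at 4.05, against -5.45 or lower elsewhere, and its Y-linked Ddx3y, Eif2s3y, Kdm5d and Uty were not well above background, which goes against its label. Wild-type injured array 2 and wild-type sham array 1 share slide 1 and the other 4 arrays share slide 2, so each injured array has a sham array of its genotype on its own slide. The wild-type pair on slide 2 sets the array with Xist against a sham array with Xist at -6.68 and Ddx3y at 1.49. Injury differences in that pair thus also set arrays of unlike sex-linked signal against each other. After Benjamini-Hochberg adjustment of limma's p over all 19615 genes, 0 genes passed a threshold of 0.05 in the injury comparison over both genotypes (3 against 3 arrays, additive model), which is 0%, although 2408 had an unadjusted p under 0.05. None of the 9 members passed in that or in any other comparison, so the differences below are descriptions of these arrays.

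On its brightest probe, the glucocorticoid receptor gene Nr3c1 was the only member whose injured and sham arrays did not overlap. It was at 0.79 on the Gpr97-deficient injured array and at 0.94 and 1.26 on the wild-type injured arrays, against 1.58 on the Gpr97-deficient sham array and 1.83 and 1.68 on the wild-type sham arrays. The injured mean was 1.0 ± 0.24 and the sham mean 1.69 ± 0.13 (SD, n = 3 each). Every injured array was thus below every sham array, a pattern shared by 13.1% of the genes with a value on all 6 arrays. The log2 difference was -0.70 with a standard error of 0.17 and an adjusted p of 0.301 in limma's additive model.

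Within slides, the Nr3c1 difference was -0.78 in the Gpr97-deficient pair, -0.57 in the wild-type pair on slide 1 and -0.74 in the wild-type pair on slide 2. All 4 Nr3c1 probes, which lie between positions 39570619 and 39574242 of chromosome 18 in mm9, were well above background on all 6 arrays. Each of the 4 was lower after injury in all 3 pairs, with differences from -0.78 to -0.24. Over all 6 arrays, 2 of the 4 probes kept every injured array below every sham array, and the other 2 overlapped. The probes target the same transcripts and are not replicates. On slide 2 the Gpr97-deficient minus wild-type difference of Nr3c1 was -0.14 after injury and -0.10 after sham surgery.

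The mineralocorticoid receptor gene Nr3c2 varied least of the 9 members. Its level was -3.27 on the Gpr97-deficient injured array and -2.97 and -3.15 on the wild-type injured arrays, against -3.06 on the Gpr97-deficient sham array and -2.80 and -3.08 on the wild-type sham arrays. The whole range over the 6 arrays was 0.47, and the groups overlapped. The injury difference was -0.15 with a standard error of 0.17 (limma adjusted p = 0.758), and its sign turned with another background correction, at 0.42. Only 1 of the 3 Nr3c2 probes was well above background on all 6 arrays, with 1 on 5 arrays and 1 on 0.

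Hsd11b2, which protects the mineralocorticoid receptor from glucocorticoids, was at -0.71 on the Gpr97-deficient injured array and at -0.41 and -1.75 on the wild-type injured arrays. Sham levels were -0.64 in the Gpr97-deficient kidney and -1.0 and -0.72 in the wild-type kidneys. Wild-type injured array 2 was the lowest array, wild-type injured array 1 the highest, and the sham arrays lay between them. The injury difference was -0.17 with a standard error of 0.38 (limma adjusted p = 0.898), and it was 0.22 without wild-type injured array 2.

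**Figure D1:**
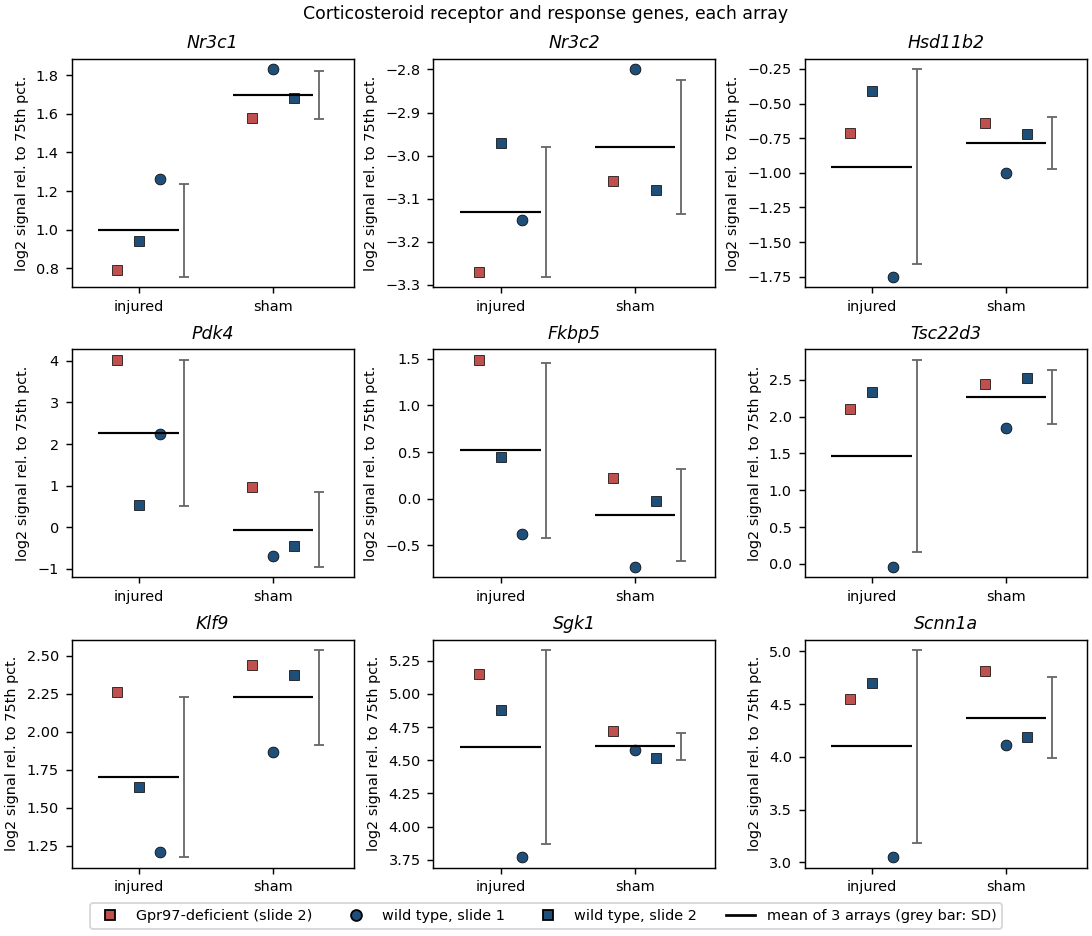
Level of each of the 9 members on each array (log2 signal minus the array's 75th percentile), injured arrays left of sham arrays, with Gpr97-deficient arrays in red and wild-type arrays in blue. Lines are means of 3 arrays and grey bars are 1 SD to either side. Nr3c1 is separated between injured (0.79 to 1.26) and sham (1.58 to 1.83), and the other 8 panels overlap.

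Pdk4 showed the largest difference of the members. Its level was 4.03 on the Gpr97-deficient injured array and 0.53 and 2.24 on the wild-type injured arrays, against 0.97 on the Gpr97-deficient sham array and -0.69 and -0.46 on the wild-type sham arrays. The Gpr97-deficient injured array was the highest of the 6 and the Gpr97-deficient sham array the highest of the sham arrays, above wild-type injured array 1, so the groups overlapped. In the additive model the injury difference was 2.33 with a standard error of 0.52, which is 5.03-fold, and limma's adjusted p was 0.279.

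By pair, Pdk4 was higher after injury by 3.06 in the Gpr97-deficient kidney, by 2.94 in the wild-type kidney on slide 1 and by 1.0 in the wild-type kidney on slide 2. In wild type alone the difference was 1.97 with a standard error of 0.64 (limma adjusted p = 0.769). The difference of the injury difference between genotypes was 1.09 with a standard error of 1.11 (adjusted p = 1 in limma), so the larger value in the Gpr97-deficient pair was within its error. A single probe on chromosome 6 in mm9, at 5433441 to 5433500, measured Pdk4, and no other probe could be set beside it.

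Fkbp5 was at 1.49 on the Gpr97-deficient injured array and at 0.45 and -0.38 on the wild-type injured arrays, against 0.22 on the Gpr97-deficient sham array and -0.73 and -0.02 on the wild-type sham arrays. Wild-type injured array 2 lay below 2 of the 3 sham arrays, so the groups overlapped. The difference was nevertheless positive in each pair, at 1.27 in the Gpr97-deficient kidney, 0.34 in wild type on slide 1 and 0.47 in wild type on slide 2. Over both genotypes it was 0.69 with a standard error of 0.36 (limma adjusted p = 0.508). All 3 Fkbp5 probes were higher after injury in all 3 pairs, between 0.34 and 1.27. The large Gpr97-deficient difference came from the brightest probe, while the other 2 probes gave 0.39 and 0.44 in that pair.

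Fkbp5 and Pdk4 were the 2 of 9 members with higher injured levels in all 3 pairs, a pattern shown by 18.7% of genes with a value on all 6 arrays. Neither was among the 1.16% of genes that were at least 2-fold higher in every pair, since the wild-type pair on slide 2 gave Pdk4 just under 2-fold. Without wild-type injured array 2 the Pdk4 difference over both genotypes was 1.95 and that of Fkbp5 was 1.01.

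Tsc22d3 and Klf9, which glucocorticoids also induce, were lower after injury in every pair. Tsc22d3 was at 2.10 on the Gpr97-deficient injured array and at 2.33 and -0.04 on the wild-type injured arrays. Sham levels were 2.44 in the Gpr97-deficient kidney and 1.85 and 2.52 in the wild-type kidneys. The low value was wild-type injured array 2 alone, and the other 2 injured arrays lay inside the sham range. The injury difference of Tsc22d3 was -0.80 with a standard error of 0.67 (limma adjusted p = 0.666), and -0.06 without that array. The within-slide differences were -0.34 in the Gpr97-deficient pair, -1.89 in the wild-type pair on slide 1 and -0.18 in the wild-type pair on slide 2. All 3 Tsc22d3 probes gave the same order. The gene is X-linked, and its level on the array with Xist was within the range of the sham arrays.

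Klf9 was at 2.26 on the Gpr97-deficient injured array and at 1.64 and 1.21 on the wild-type injured arrays, against 2.44 on the Gpr97-deficient sham array and 1.87 and 2.37 on the wild-type sham arrays. On this brightest probe the wild-type injured arrays were below all sham arrays, and the Gpr97-deficient injured array was not. On the other Klf9 probe wild-type injured array 1, at 1.59, was above wild-type sham array 1, at 0.8. The injury difference was -0.53 with a standard error of 0.24 (limma adjusted p = 0.464). Both Klf9 probes were lower after injury in all 3 pairs, between -0.73 and -0.09. Klf9, Nr3c1 and Tsc22d3 were the 3 of 9 members with lower injured levels in all 3 pairs, as were 26.4% of all genes with a value on all 6 arrays.

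**Figure D2:**
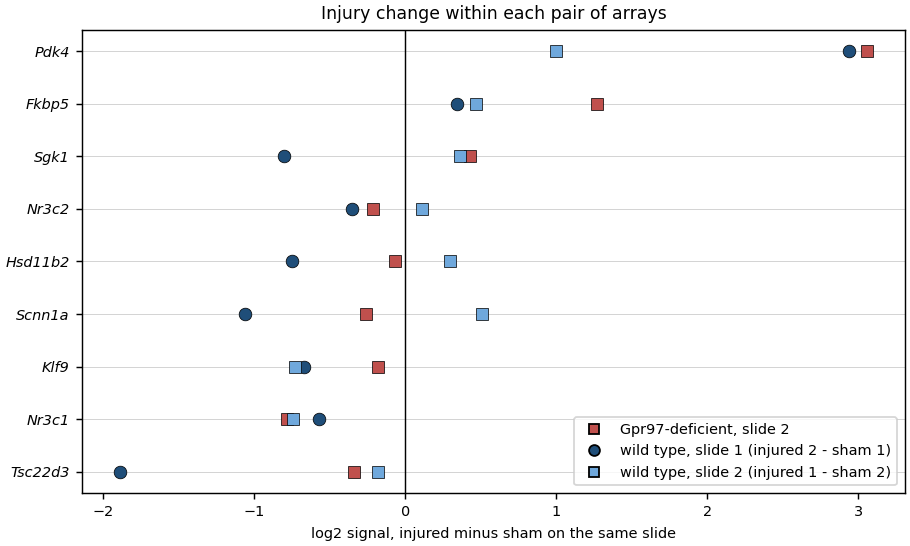
Injured minus sham log2 signal within each pair of arrays on a slide, for each of the 9 members. Red squares are the Gpr97-deficient pair, dark blue circles the wild-type pair on slide 1 and light blue squares the wild-type pair on slide 2. Pdk4 and Fkbp5 lie right of 0 in all 3 pairs, Klf9, Nr3c1 and Tsc22d3 lie left of 0 in all 3, and the other 4 members change sign between pairs.

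**Figure D3:**
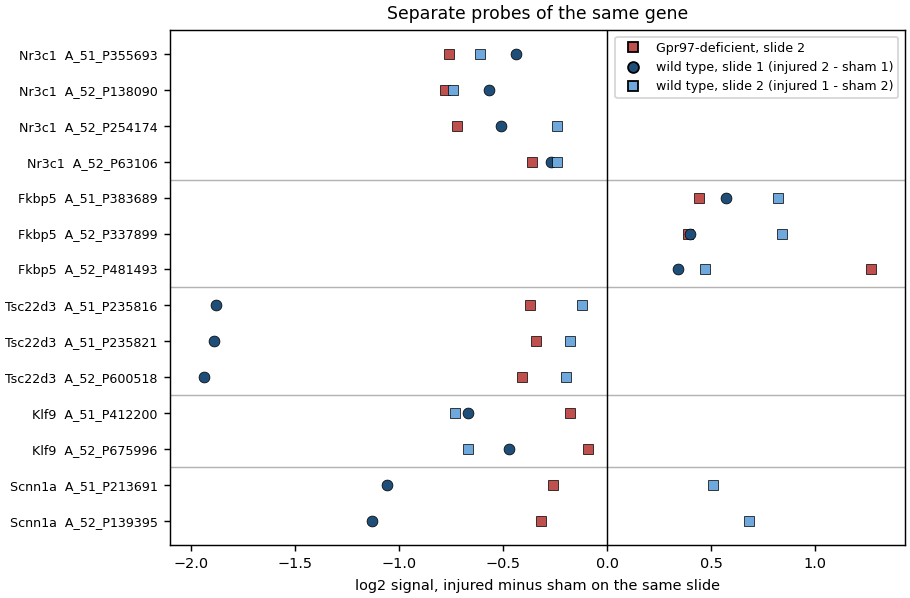
Injured minus sham log2 signal within each pair for the separate probes of the 5 members for which at least 2 probes passed background everywhere, with the same symbols for the pairs. The probes of Nr3c1, Tsc22d3 and Klf9 all lie left of 0, those of Fkbp5 right of 0, and both Scnn1a probes are split by pair.

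Sgk1 and Scnn1a, the targets that connect aldosterone to sodium uptake, did not show a common injury difference. Sgk1 was at 5.15 on the Gpr97-deficient injured array and at 4.88 and 3.77 on the wild-type injured arrays, against 4.72 on the Gpr97-deficient sham array and 4.58 and 4.52 on the wild-type sham arrays. The first 2 of these injured arrays were above all sham arrays and wild-type injured array 2 was below them all. The injury difference averaged -0.01 with a standard error of 0.35 (limma adjusted p = 0.998), and was 0.37 without wild-type injured array 2. The sham levels of Sgk1 had an SD of 0.11, against 0.73 for the injured levels (n = 3 each). The Sgk1 probe used, at 21719390 to 21719449 on chromosome 10 in mm9, does not tell the 6 annotated starts apart, and a second probe was above background on 0 arrays.

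Scnn1a shared with Sgk1 the low value of wild-type injured array 2. Its level was 4.55 on the Gpr97-deficient injured array and 4.70 and 3.05 on the wild-type injured arrays, against 4.81 on the Gpr97-deficient sham array and 4.11 and 4.19 on the wild-type sham arrays. That array was below every other array, the Gpr97-deficient sham array was the highest, and the other 2 injured arrays lay between the wild-type and the Gpr97-deficient sham levels. The injury difference was -0.27 with a standard error of 0.45 (limma adjusted p = 0.854), and 0.20 without that array. Both Scnn1a probes gave the same sign in each pair, with within-slide differences from -0.32 to -0.26 in the Gpr97-deficient pair, -1.13 to -1.06 in the wild-type pair on slide 1 and 0.51 to 0.68 in the wild-type pair on slide 2. The other channel subunits were close to their sham levels, with injury differences of 0.19 for the beta subunit Scnn1b and -0.19 for the gamma subunit Scnn1g. Nedd4l, the ubiquitin ligase that removes the channel and is a substrate of Sgk1, differed by 0.13.

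Wild-type injured array 2 was thus the lowest array for 5 of the 9 members (Hsd11b2, Klf9, Scnn1a, Sgk1 and Tsc22d3), as it was for 28.9% of genes with a value on all 6 arrays. The median difference of the 9 members from the wild-type sham mean was 0.14 on the Gpr97-deficient injured array, 0.33 on wild-type injured array 1 and -0.77 on wild-type injured array 2, against 0.25 on the Gpr97-deficient sham array. Markers of the segments where these genes act were low on the same array. The 7 principal cell markers, of the collecting duct cells that respond to aldosterone, had a median difference of -0.71 there, against 0.20 and 0.16 on the other 2 injured arrays. The 5 intercalated cell markers stood at -0.66 and the 4 distal convoluted tubule markers at -1.24 on that array, against -0.48 to 0.37 on the other injured arrays. All 7 principal cell markers were above background on all 6 arrays. Their summed linear level, in units of the array's 75th percentile, was 56.7 on wild-type injured array 2 and 111 and 103 on the other injured arrays, against 102 to 157 on the sham arrays. The summed level of the 5 intercalated cell markers was 15.4 to 36 on injured arrays, against 27.8 to 48.9 on sham arrays, and that of the 4 distal convoluted tubule markers was 16 to 33, against 33.1 to 84.6. This last sum was mostly Calb1, at 3.76 to 4.83 on injured arrays and 4.89 to 6.23 on sham arrays. Calb1 is also a principal cell marker here, so the sums of these 2 lists are not independent. The 6 proximal tubule markers, all above background on all 6 arrays, summed to 235 to 373 on injured arrays, against 475 to 643 on sham arrays. The part of these shifts in the members' values was not tested.

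**Figure D4:**
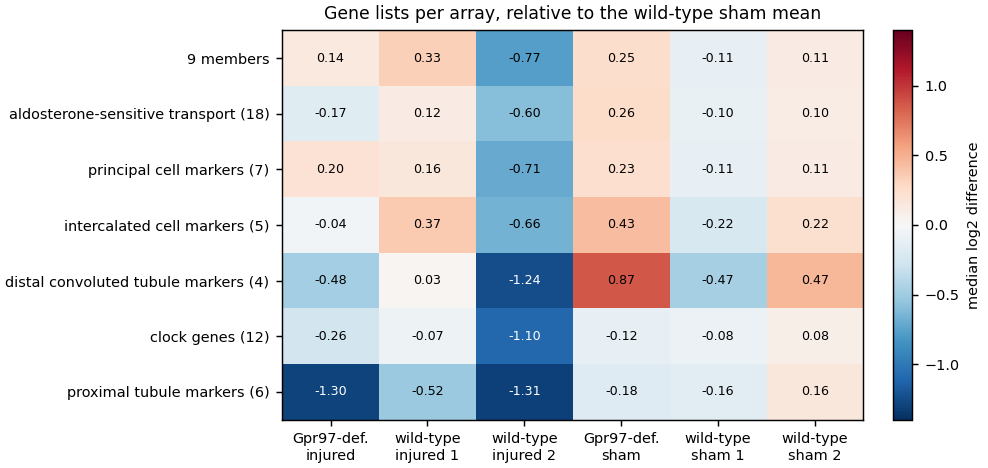
Median log2 difference from the wild-type sham mean of each gene list on each array, injured arrays left of sham arrays, with the number of genes in brackets. Wild-type injured array 2 is the lowest array in every row shown, at -0.77 for the 9 members, and proximal tubule markers are also low on the Gpr97-deficient injured array, at -1.30.

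Over the 9 members, 2 had a positive and 7 a negative injury difference in the additive model, with a median of -0.17, while 43.3% of all genes tested had a positive difference and their median was -0.06. That median depended on which array was left out, and its sign turned without wild-type injured array 2, where it was 0.20. By pair the members' medians were -0.18 in the Gpr97-deficient pair, -0.67 in the wild-type pair on slide 1 and 0.30 in the wild-type pair on slide 2, beside -0.05, -0.11 and 0 for all genes. The members as a list therefore had no common direction.

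Other genes that glucocorticoids induce were set beside the members, 16 of 18 listed genes having a probe. In the additive model 9 were higher and 7 lower after injury, with a median of 0.32, and none passed the test. The cell cycle inhibitor Cdkn1a differed by 2.87 with a standard error of 0.50 (limma adjusted p = 0.262), the metallothionein Mt2 by 2.48 with a standard error of 0.37 and the transcription factor Cebpd by 2.07 with a standard error of 0.26 (both with a limma adjusted p of 0.26). Cebpd was at 3.71 on the Gpr97-deficient injured array and at 3.81 and 4.16 on the wild-type injured arrays, against 2.05 on the Gpr97-deficient sham array and 1.98 and 1.43 on the wild-type sham arrays. Its groups did not overlap, nor did those of Cdkn1a, Mt2 and, named after its values were seen, Zfp36, which makes 4 of 16 beside 9.69% of all genes. In the other direction Bcl6 and Hif3a, likewise named after their values were seen, had every injured array below every sham array, 2 of 16 beside 13.1% of all genes. The circadian gene Per1, which glucocorticoids also induce, differed by 0.17 with a standard error of 0.52, and this became -0.26 without wild-type injured array 1. The secreted lipase inhibitor Angptl4 was at 6.28 on the Gpr97-deficient injured array and at 3.84 and 5.36 on the wild-type injured arrays. Its sham levels were 4.62 in the Gpr97-deficient kidney and 1.17 and 4.77 in the wild-type kidneys, so wild-type sham array 1 alone stood low among the sham arrays.

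Angptl4 and Pdk4 are also targets of PPAR alpha, the fatty acid receptor of fasting. Of 11 tested genes of that list, 9 were higher and 2 lower after injury, with a median of 0.65 and none past the test. All 11 were higher in the Gpr97-deficient pair, with a median of 1.22, whereas 7 of 11 were higher in the wild-type pair on slide 1 and 5 of 11 in the wild-type pair on slide 2. Among all genes, 44% were higher in the Gpr97-deficient pair, 41.7% in the wild-type pair on slide 1 and 49.8% in that on slide 2. The lipid droplet protein gene Plin2 differed by 2.28 with a standard error of 0.76 (limma adjusted p = 0.365). It was at 6.70 on the Gpr97-deficient injured array and at 4.84 and 7.57 on the wild-type injured arrays, against 3.78 on the Gpr97-deficient sham array and 4.0 and 4.49 on the wild-type sham arrays, and the groups did not overlap. Every injured array was above every sham array for 2 of the 11 tested genes of this list, beside 9.69% of all genes. The reverse held for 0 of the 11, beside 13.1% of all genes. The hormone gene Fgf21 differed by 2.40 with a standard error of 1.86 and was above background on only 3 arrays.

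**Figure D5:**
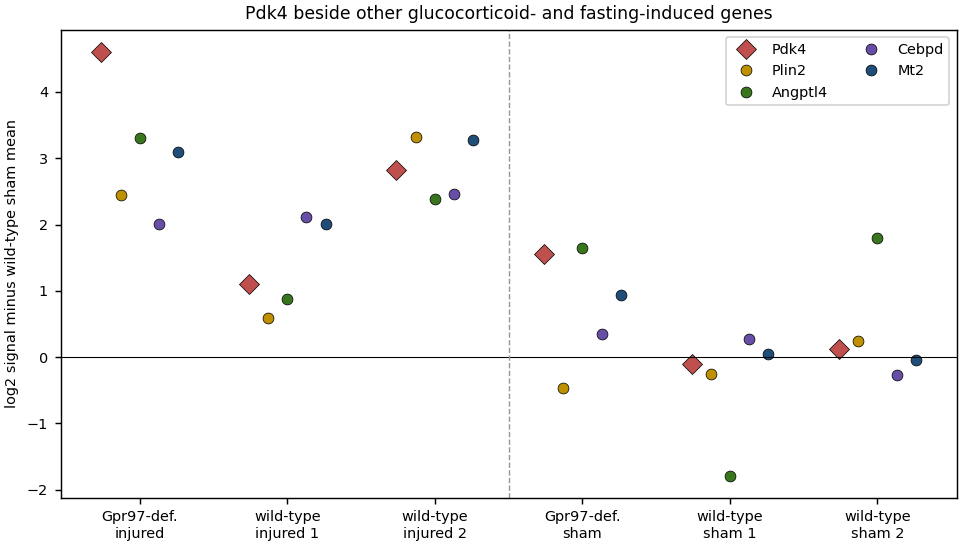
Log2 signal of Pdk4 and 4 other glucocorticoid- or fasting-induced genes on each array, relative to each gene's wild-type sham mean, injured arrays left of sham arrays. Pdk4 (diamonds) is the highest of the 5 genes on the Gpr97-deficient injured array and, on the Gpr97-deficient sham array, stands above both of its wild-type sham values.

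Adipocyte markers, from a tissue in which Pdk4 and Angptl4 are also expressed, summed to 32.7 on the Gpr97-deficient injured array, against 12.7 to 13.8 on the other 5 arrays. This sum was carried by Fabp4, at 4.94 there and 3.59 to 3.70 elsewhere, which macrophages and endothelial cells express too. Only 3 of the 7 adipocyte markers were above background on all 6 arrays, Plin1 was above background on 1 array and Lep on 0. Plin1 was at -3.74 on the Gpr97-deficient injured array, against -7.97 to -6.69 elsewhere. The 4 adipocyte markers tested were all higher in Gpr97-deficient than in wild-type injured kidney, with a median difference of 1.11. After sham surgery all 4 were lower in the deficient kidney, with a median difference of -1.03. Neutrophil markers summed to 27 on the Gpr97-deficient injured array and 29.4 and 12 on the wild-type injured arrays, against 57.7 on the Gpr97-deficient sham array and 3.57 and 2.48 on the wild-type sham arrays. Red blood cell markers summed to 23, 42.5 and 2.57 on the injured arrays in the same order, against 81.7 on the Gpr97-deficient sham array and 6.49 and 7.12 on the wild-type sham arrays. The part of these cells in the members' values was not tested. The 6 adrenal cortex markers with a probe summed to 0.474 to 1.01 on all arrays, and the steroid synthesis genes Cyp11a1 and Cyp11b2 were above background on 0 arrays.

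On the aldosterone side, 18 further transport genes and regulators were measured. After injury 4 were higher and 14 lower, with a median of -0.36 and none past the test. The deubiquitinase gene Usp2 differed by -1.17 with a standard error of 0.67 (limma adjusted p = 0.54) and Klhl3, which targets WNK kinases for degradation, by -1.07 with a standard error of 0.64. Ndrg2 differed by -0.71 and Kcnj1, the potassium channel ROMK, by -0.68. In this list 12 of 18 genes were lowest on wild-type injured array 2, as were 28.9% of all genes. Kcnj1 shows the pattern, with 5.14 on the Gpr97-deficient injured array and 5.69 and 4.34 on the wild-type injured arrays, against 5.90 on the Gpr97-deficient sham array and 5.82 and 5.48 on the wild-type sham arrays. The sodium channel protease gene Prss8 and the sodium pump subunit gene Atp1b1, named after their values were seen, were the 2 of 18 whose injured arrays were all below the sham arrays, which 13.1% of all genes showed.

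Receptor chaperones, coregulators and steroid enzymes centred on 0, with 8 of 14 higher, 6 lower and a median of 0.02. H6pd, which supplies NADPH to the glucocorticoid-reactivating enzyme Hsd11b1, was at 4.45 on the Gpr97-deficient injured array and at 3.57 and 4.45 on the wild-type injured arrays, against 3.06 on the Gpr97-deficient sham array and 2.89 and 3.47 on the wild-type sham arrays. Its difference was 1.02 with a standard error of 0.33 (limma adjusted p = 0.357). Hsd11b1 differed by -0.54 with a standard error of 0.67, and its pairs disagreed, at 1.41 in Gpr97-deficient kidney, against -0.94 and -2.10 in wild type. The receptor coactivator Ncoa2 differed by -0.41 and the co-chaperone Stip1 by 0.36.

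Clock genes, several of which respond to glucocorticoids, were lower for 7 and higher for 4 of the 11 tested, with a median of -0.69. By pair the median was -1.29 in the wild-type pair on slide 1 and -0.14 in that on slide 2. It was 0.02 in the Gpr97-deficient pair, where 6 of 11 were higher. Wild-type injured array 2 was the lowest array for 7 of the 11, beside 28.9% of all genes. Nr1d2, a transcriptional repressor of the clock, was at 0.43 on the Gpr97-deficient injured array and at 0.51 and 0.27 on the wild-type injured arrays, against 1.26 on the Gpr97-deficient sham array and 1.56 and 1.57 on the wild-type sham arrays. Its difference was -1.06 with a standard error of 0.17 (limma adjusted p = 0.26), and the groups did not overlap. Every injured array was below every sham array for 4 of the 11 tested clock genes, beside 13.1% of all genes. The reverse held for 0 of the 11, beside 9.69% of all genes. Dbp differed by -1.72, Ciart by -2.18 and Per3 by -1.56, the last of these at 0.16 with another background correction. Ciart and Per3 were each above background on 5 arrays and were lowest on wild-type injured array 2, at -5.23 and -6.46. The labels state no time of day for the collection, and its part was not tested.

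With Gpr97 deficiency set against wild type over both surgeries (2 against 4 arrays), 0% of genes passed the test in limma, and 639 had an unadjusted p under 0.05. Of the members 7 were higher and 2 lower in the deficient kidneys, with a median difference of 0.58, while 48.4% of all genes were higher and their median was -0.01. The wild-type side includes wild-type injured array 2, the lowest array for 5 of the 9 members and for 28.9% of genes. Both deficient arrays are on slide 2. Within that slide 4 of the 9 members were higher in the deficient kidney after both surgeries, beside 22.8% of all genes. Pdk4 averaged 2.5 on the deficient arrays and 0.40 on the wild-type arrays, a difference of 2.10 with a standard error of 0.55. Fkbp5 averaged 0.86 on the deficient arrays and -0.17 on the wild-type arrays, a difference of 1.03 with a standard error of 0.39. Klf9 differed by 0.58 with a standard error of 0.26, and Scnn1a by 0.66 with a standard error of 0.48. The adjusted p was 0.993 in limma for each of the 9 members.

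Markers of macrophages and neutrophils were mostly higher in the same comparison, and those of T cells mostly lower. All 6 macrophage markers were higher in the deficient kidneys, with a median difference of 0.66. For 3 of them, the complement genes C1qa, C1qb and C1qc, both deficient arrays were above all 4 wild-type arrays. That pattern was shown by 4.33% of genes with a value on all 6 arrays. The summed macrophage level was 11.3 on the Gpr97-deficient injured array and 11.5 on the Gpr97-deficient sham array, against 10.1 and 6.82 on the wild-type injured arrays and 5.11 and 10.8 on the wild-type sham arrays. Of the 6 neutrophil markers 5 were higher, with a median difference of 2.22. Their median difference was 3.74 in the sham kidney alone and 0.48 in the injured kidney alone. Of the 7 T cell markers 2 were higher and 5 lower, with a median difference of -0.12. Only 2 of these 7 were above background on all 6 arrays. Of other lists, 17 of 18 aldosterone-sensitive transport genes, 14 of 16 other glucocorticoid-induced genes and 7 of 11 PPAR alpha targets were higher. So were 6 of 7 principal cell, 5 of 5 intercalated cell and 4 of 4 distal convoluted tubule markers. Red blood cell markers were higher for 3 of 3. Fewer were higher among chaperones, coregulators and steroid enzymes (5 of 14), clock genes (5 of 11) and proximal tubule markers (0 of 6). The part of these lists in the members' differences was not tested.

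On the brightest probe of each gene, none of the members had both deficient arrays above, or both below, all 4 wild-type arrays, which 4.33% of genes did upward and 6.52% downward. The other 2 of the 3 Fkbp5 probes, however, had both deficient arrays above all 4 wild-type arrays. The Gpr97-deficient sham level of Pdk4, 0.97, was below wild-type injured array 2, at 2.24. The deficient arrays are both on slide 2, where the wild-type injured array is the 1 with Xist and without Y-linked signal, so the injured difference on that slide also sets arrays of unlike sex-linked signal against each other. There, Pdk4 differed by 3.50 after injury and 1.44 after sham surgery, Fkbp5 by 1.04 and 0.24, Klf9 by 0.62 and 0.07, and Sgk1 by 0.27 and 0.20. These 4 of 9 members were higher in the deficient kidney after both surgeries, as were 22.8% of all genes. The Fkbp5 order after injury and sham surgery depended on the probe, since the other 2 probes differed by 0.71 and 0.76 after injury and by 1.09 and 1.21 after sham surgery. Of the other 5 members, Tsc22d3 was lower in the deficient kidney after both surgeries, with differences of -0.24 and -0.08, as was Nr3c1, with the -0.14 and -0.10 given above. The signs turned between surgeries for Scnn1a, at -0.15 after injury and 0.62 after sham surgery, Hsd11b2, at -0.30 and 0.08, and Nr3c2, at -0.30 and 0.01. With slide as a block the Tsc22d3 difference was -0.16, against 0.60 without it, and that of Hsd11b2 was -0.11, against 0.29.

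In the injured kidney alone (1 against 2 arrays), where 0% of genes passed, Pdk4 differed by 2.65 with a standard error of 0.79 and Fkbp5 by 1.46 with a standard error of 0.54. In the sham kidney alone (1 against 2 arrays), where 0% of genes passed as well, Pdk4 differed by 1.55 with a standard error of 0.79 and Fkbp5 by 0.59. The interaction of genotype and injury was called for 0% of genes, and for Fkbp5 it was 0.86 with a standard error of 0.77 (limma adjusted p = 1). That sign belonged to the brightest Fkbp5 probe, and the other 2 probes gave -0.26 and -0.23. The injury comparisons in wild type alone and in Gpr97-deficient kidney alone also had 0% of genes called. With 1 array in each deficient group, the spread there is assumed to be that of the wild-type arrays.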

How the data were processed

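Kidney RNA was measured on 6 arrays labelled with Cy3. The deposited scanner files hold a processed intensity for each spot, and per the file headers slide 1 was extracted with Feature Extraction 10.7.1.1, slide 2 with version 10.7.3.1, both under protocol GE1_107_Sep09, and probes are placed on mm9. The deposited flags for background, saturation and outliers are other values of those files. The authors' deposited series values matched the scanner signals (Spearman's rho at least 0.9999) and were read as log2 values with medians of 6.07 to 6.09. Their normalization is not known, and the submitters' processing notes name limma.

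Control spots and outlier spots (80 to 120 per array) were left out, and 0 spots were saturated. Between 63.3% and 71.3% of spots were well above background, and the number of arrays limits the precision. Values are log2 processed signal minus the array's 75th percentile. The brightest probe on average stood for its gene. The test covered 19615 genes that cleared background on 2 or more arrays (19606 with a value on every array). Names were updated through RefSeq for 27668 probes by accession, 5589 by symbol and 471 by synonym, and 7446 kept the name of the file. No 2 arrays were identical (0 of 15 pairs), with Pearson's r across probes of 0.953 to 0.983.

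Tests were two-sided, with limma 3.58.1 in R 4.3.3. Group means gave the injury differences within a genotype, the genotype differences within a surgery and the interaction. An additive model of genotype and surgery gave the differences over both. All 6 arrays shared a spread per gene, and calls were made at a Benjamini-Hochberg adjusted p under 0.05. On data simulated for injury over both genotypes (19606 genes, 50 changed per size), the fit recovered 4 genes changed by 1 log2 unit, 27 changed by 2, 39 changed by 4 and 42 changed by 6, and called 8 unchanged genes. The simulated noise was normal, at each gene's residual SD from the additive model, and independent between arrays. These counts therefore do not give the power in the real data.

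The members and the gene lists were chosen with earlier results of these data known. Named genes are all members, Adgrg3, Per1, Scnn1b, Scnn1g, Hsd11b1, Nedd4l, the 4 genes of each pathway list with the largest injury difference and the 2 brightest of each marker list, of which only those bearing on a result are given. Some of the genes this rule takes are not reported here. Promoters are RefSeq windows of GRCm38.p6, searched with Python 3.11.15 and pandas 2.3.3. They covered 6 of the 10 members. Figures used matplotlib 3.10.9. Alternatives tried were quantile normalization, normexp background correction with an offset of 50, other filters, the mean of a gene's probes, a variance trend with a robust prior, slide as a block, the deposited series values, wild-type arrays alone and leaving out each array.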

Additional observations from a re-analysis of the deposited data

Results flagged for a closer look

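Adgrg3, the gene removed in the deficient mice, differed by -0.37 between injured and sham in the Gpr97-deficient pair, against 0.99 and 1.03 in the wild-type pairs on slides 1 and 2. The interaction was -1.38 (limma adjusted p = 1), and the deficient injured array was not well above background for this gene. Hsd11b1, which regenerates active glucocorticoid, was higher after injury by 1.41 in the Gpr97-deficient pair, against -0.94 and -2.10 in the wild-type pairs on slides 1 and 2. Its interaction was 2.93 (limma adjusted p = 1). In both cases every wild-type pair lay on the other side of 0 from the deficient pair, which is 1 pair of arrays, and the test of the difference was not passed.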

How the results depend on the processing

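The labels give no replicate numbers that groups share, so the pairs read here are those of a slide and genotype, and slide as a block beside genotype is the fit over these 3 pairs. No member passed the threshold under any alternative, and Pdk4 (1.95 to 2.92, limma adjusted p 0.158 to 0.769) and Nr3c1 (-0.80 to -0.52, 0.16 to 0.792) kept their direction over both genotypes in all of them. Genes called for injury over both genotypes were 0, but 1 with quantile normalization, 1 with slide as a block, 1 with the deposited series values (Sprr2f each time) and 3 under limma's trended, robust prior (Sprr2f, Col3a1 and Mmp7). With that prior Adgrg3 was the 1 gene called for Gpr97 deficiency over both surgeries and the 1 in the injured kidney. Normexp background correction shifted the median of all genes to 0.28 for injury in wild type, 0.19 for injury over both genotypes and -0.17 for genotype over both surgeries, against -0.05, -0.06 and -0.01 without it. With it Nr3c2 was at 0.72 for injury in wild type and 0.42 over both genotypes, Hsd11b2 at 0.25 and 0.15 for the same and -0.01 for genotype, and Per3 at 0.16. With slide as a block the genotype difference of Tsc22d3 was -0.16 and that of Hsd11b2 -0.11. Sgk1 over both genotypes was 0.09 with quantile normalization and 0.08 with the deposited values. The cause of these shifts was not tested.

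Leaving out each array in turn, the injury difference in wild type ranged from -0.01 to 0.82 for Fkbp5, -2.22 to 0.15 for Tsc22d3, -0.77 to 0.33 for Sgk1, -0.26 to 0.01 for Nr3c2, -0.89 to 0.44 for Hsd11b2 and -1.10 to 0.55 for Scnn1a. Over both genotypes it ranged from -0.26 to 0.37 for Sgk1, -0.54 to 0.22 for Hsd11b2, -0.74 to 0.20 for Scnn1a, -0.26 to 0.73 for Per1 and -0.40 to 0.05 for Scnn1g, and the genotype difference of Hsd11b2 from 0 to 0.57. The members' median was -0.54 to 0.20. Where leaving out an array left a group with 1 array, that array is assumed to vary like the others.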
